A study of Mus musculus with 4 samples.

Results

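This account covers what the db/db genotype, a model of obesity and type 2 diabetes, went with in mouse kidney cortex outside the proximal tubule. It compares the db/db library with the WT library in 8 deposited clusters of nuclei, those numbered 4, 5, 8, 9, 11, 12, 13 and 15. They are a fixed choice of 8 of the 21 deposited clusters, made by cluster number, and 5 of the others are proximal tubule-like. They held 1808 of about 5152 WT nuclei and 1661 of about 4576 db/db nuclei, or 3469 of about 16161 nuclei in the 4 libraries of the series.

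The series profiled nuclear RNA of kidney cortex from C57BL/6J mice with the 10X Chromium droplet method, with 1 library per genotype. The genotypes were WT, db/db, Sco2KO/KI, and Sco2KO/KI;db/db. Both Sco2KO/KI groups carry a knockout and a knock-in allele of Sco2, whose product delivers copper to respiratory complex IV during its assembly. Neither WT nor db/db carries an altered Sco2 allele by its label. The mice of the db/db genotype are homozygous for the db mutation of Lepr, the leptin receptor gene, in every cell of the body. The labels give no age, do not name the littermate genotype used as WT, and do not say whether a library came from 1 mouse or from a pool. With 1 library per group there is no replicate, so differences are described by size and no p-value is given. A difference between the WT and db/db libraries cannot be told apart from a difference between the mice or the preparations.

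Leptin receptor loss in mice gives overeating, obesity and raised blood glucose. In the kidney, the nephron beyond the proximal tubule consists of the thick ascending limb, which takes up sodium, potassium and chloride, the distal convoluted tubule, which takes up sodium chloride and magnesium, and the connecting tubule and collecting duct, which fine-tune calcium, sodium, potassium and water. Intercalated cells handle acid and base. Podocytes and the fenestrated glomerular endothelium form the filter, which is an early site of diabetic kidney damage.

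The clusters were checked against marker genes, counting a marker when its level was at least 2 times that of the other clusters. Cluster 4 held 9 of 10 thick ascending limb markers, cluster 5 held 10 of 10 distal convoluted tubule markers, and cluster 15 held 9 of 9 podocyte markers. Cluster 9 held 9 of 10 endothelial markers. Cluster 8 held 6 of 6 connecting tubule markers and also 6 of 9 principal cell markers. Cluster 11 held 5 of 6 type B intercalated cell markers and 3 of 7 type A markers. Cluster 13 held 7 of 9 principal cell markers and 3 of 6 parietal epithelial markers. Cluster 12 held 6 of 10 distal convoluted tubule markers and 6 of 6 connecting tubule markers, and is therefore called by its number. The other names below stand for clusters that are like these cell types by their markers.

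Every value is the mean, over the nuclei of a cluster in a library, of a gene's UMIs (counted RNA molecules) per 10000 UMIs of the nucleus. The ratio of db/db to WT was taken after adding 0.1 to both values and is given on the log2 scale. It was read only where at least 1 of the libraries had a value of 0.5 or more, here called the floor. A gene is called higher or lower where it passed 2-fold. The nuclei per cluster, recovered from the smallest values, ran from 107 to 622 in WT and from 108 to 334 in db/db. The median UMIs per nucleus recovered in the same way ran from 950.5 to 3660.5 in WT and from 980.5 to 2246 in db/db. Lepr itself reached the floor only in the endothelium-like cluster, at 0.570 in WT against 0.490 in db/db, and these reads do not show the mutation. Sco2 was at most 0.0986 in any of the 8 clusters of the 4 libraries, so the level of that gene does not check the labels. Uty, a Y-linked gene, lay between 1.77 and 4.66 in every one of these clusters and libraries.

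Between 4200 and 5078 genes were above the floor in a cluster, and more of them were lower than higher in db/db in all 8 clusters. In the thick ascending limb-like cluster 98 genes were higher (2.28% of those above the floor) and 186 were lower (4.33%). In the distal convoluted tubule-like cluster 88 were higher (1.99%) and 235 lower (5.31%). In the connecting tubule-like cluster 131 were higher (2.88%) and 431 lower (9.48%). The endothelium-like cluster had the highest number, with 264 higher (5.2%) and 589 lower (11.6%). The type B intercalated cell-like cluster had 109 higher (2.39%) and 239 lower (5.24%), and cluster 12 had 119 higher (2.83%) and 331 lower (7.87%). The principal cell-like cluster had 232 higher (4.92%) and 424 lower (8.98%), and the podocyte-like cluster had 163 higher (3.88%) and 504 lower (12%). The median log2 ratio of all genes above the floor lay between -0.15 and 0.01. In the podocyte-like cluster the median was -0.15, the 1 cluster with a shift above 0.1 in size. There 75.6% of the called genes were lower, and 59.1% were when the ratios were set relative to that median. The same centring took the endothelium-like cluster from 264 higher and 589 lower genes to 338 and 496, and cluster 12 from 119 and 331 to 152 and 275. Clusters with few nuclei give noisier means, which can push low genes past 2-fold without any difference in the tissue.

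**Figure D1:**
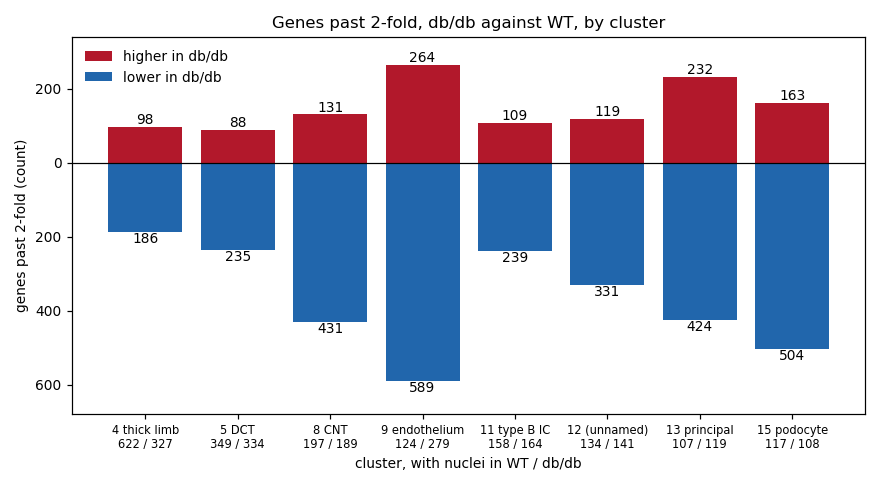
Number of genes past 2-fold in db/db against WT in each cluster, with genes that were higher in db/db drawn upwards from 0 and genes that were lower drawn downwards. Nuclei in WT and db/db stand under each cluster. Lower genes outnumber higher genes in all 8 clusters, from 186 against 98 in cluster 4 to 589 against 264 in cluster 9.

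Most differences were found in few clusters. Of 7348 genes above the floor in at least 1 cluster, 2778 passed 2-fold in at least 1, and 119 of these were higher in some cluster and lower in another. Of 3660 genes above the floor in at least 6 clusters, 4 (0.109%) were higher in at least 6 clusters, and 39 (1.07%) were lower in at least 6. Among the 39, 13 were lower in all 8 clusters. Of the 4, 1 was higher in all 8.

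The genes that were lower everywhere were led by transcripts best known from the proximal tubule. Kap, a kidney androgen-regulated protein on chromosome 6 (mm10, 133849851 to 133853762), was at 29.0, 32.0, 33.4, 48.0, 20.4, 23.3, 29.0 and 29.0 in WT, in the order of clusters 4, 5, 8, 9, 11, 12, 13 and 15. In db/db it was at 3.53, 3.98, 3.64, 5.82, 2.65, 3.00, 4.21 and 2.75. Every db/db value was below every WT value, and the median log2 ratio was -2.99. Slc7a13, an amino acid transporter of the last proximal segment, was between 1.65 and 2.93 in WT and between 0 and 0.213 in db/db, and was listed at 0 in cluster 12 of db/db. Acy3, an aminoacylase, was between 1.39 and 3.40 in WT and between 0.110 and 0.362 in db/db. Cyp4b1, a cytochrome P450, was between 2.22 and 5.48 in WT and between 0.168 and 1.33 in db/db. The ranges of WT and db/db did not overlap for any of these 4 genes, which were picked for their low ratios. The clusters of a library are not replicates of its genotype, and the share of all genes without overlap was not counted. Napsa, an aspartic protease, had a median log2 ratio of -2.10, and Slc34a1, the sodium-phosphate cotransporter, had -1.33.

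Marker genes of the proximal tubule, which overlap the genes lower in at least 6 clusters, were lower as a sum in the nuclei of other types. The summed level of 21 proximal tubule markers in the 8 clusters ran from 56.1 to 113.7 in WT and from 19.4 to 48.5 in db/db, and was lower in 8 of 8 clusters, with log2 ratios between -1.98 and -0.86. In the thick ascending limb-like cluster all 21 were detected in both libraries. Because 8 of these markers were among the 39 genes lower in at least 6 clusters, the sum partly restates that selection. Genes with high levels weigh most in it, and a sum without the 8 was not taken. The median log2 ratio of the markers above the floor, which gives each gene equal weight, was negative in all 8 clusters. It ran from -1.61 to -0.38, with the 8 genes still included. The summed level of 10 thick ascending limb markers in the 7 other clusters was lower in 7 of 7, with log2 ratios between -1.41 and -0.45. One of the 10, Umod, was among the 39 genes lower in at least 6 clusters, so this sum also partly restates that selection. Another, Egf, is also among the distal convoluted tubule markers. Slc12a1, the sodium-potassium-chloride cotransporter that defines the thick ascending limb, shows both sides. It was at 156 in WT against 157 in db/db in the thick ascending limb-like cluster, and at 7.67 and 2.65 in the endothelium-like cluster. Umod, which encodes uromodulin, was at 27.3 and 25.9 in the thick ascending limb-like cluster and past 2-fold lower in 6 of the 8 clusters. Summed connecting tubule markers were lower in 4 of 7 other clusters, with log2 ratios between -2.14 and 0.88. Summed podocyte markers were lower in only 1 of 7 other clusters, and summed type B markers in 0 of 7. The part of such RNA from other cells in the shared differences was not tested.

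Of the 39 shared lower genes, 8 were among the proximal tubule markers, and 11 had a WT level in the 5 proximal tubule-like clusters at least 3 times the mean of the 8 clusters. All 39 had a negative ratio in the proximal tubule-like clusters too, and 26 were past 2-fold lower there. Kap was at 43.3 in the WT proximal tubule-like clusters, 1.42 times its mean of the 8 clusters, with the endothelium-like cluster above it at 48.0 and the 7 others below it. The other 28 shared lower genes were not enriched in this way, and include genes that most cells use. Ubb, a polyubiquitin gene, was between 0.513 and 1.35 in WT and between 0.0588 and 0.357 in db/db. Fth1 and Ftl1, the heavy and light chains of ferritin, the iron store, had median log2 ratios of -1.13 and -1.23. Prdx5, a peroxiredoxin, had -1.17, and Selenop, the plasma selenium carrier, had -1.89. Odc1, the first enzyme of polyamine synthesis and, like Kap, an androgen-responsive gene of mouse kidney, was between 0.584 and 1.33 in WT and between 0.0915 and 0.251 in db/db.

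Lpl, lipoprotein lipase, which frees fatty acids from circulating triglyceride, was lower in 7 of 8 clusters. It was at 2.34 in WT against 1.15 in db/db in the thick ascending limb-like cluster, 2.13 and 0.667 in the distal convoluted tubule-like, 1.55 and 0.355 in the connecting tubule-like, and 2.48 and 0.245 in the endothelium-like cluster. It was at 1.26 and 0.154 in the type B-like cluster, 2.04 and 0.347 in cluster 12, 1.06 and 0.195 in the principal cell-like, and 4.69 and 1.22 in the podocyte-like cluster. Each cluster had the lower value in db/db, and the smallest ratio was that of the thick ascending limb-like cluster.

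The 4 shared higher genes were Gm47283, Per2, Cyp4a10 and Col27a1. Gm47283, known only by a model name, was between 0.324 and 0.809 in WT and between 1.57 and 2.22 in db/db. Cyp4a10, a fatty acid omega-hydroxylase and a target of the lipid-sensing receptor PPAR-alpha, was higher in 7 of the 7 clusters above the floor, with a median log2 ratio of 1.57. Its levels were low, between 0.116 and 0.328 in WT and between 0.191 and 1.16 in db/db. Col27a1, a fibrillar collagen, was at 0.169 in WT against 1.09 in db/db in the thick ascending limb-like cluster, and at 3.34 and 4.19 in the connecting tubule-like cluster, where it did not pass 2-fold. Cyp4a10 lies on chromosome 4 (mm10, 115518264 to 115533649), 13.8 Mb from Lepr. Cyp4b1 and Cyp2j13, both lower, lie 13.9 Mb and 5.71 Mb from it. DNA around Lepr can differ between db/db and WT mice because it travels with the mutation, and its part in these ratios was not tested.

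**Figure D2:**
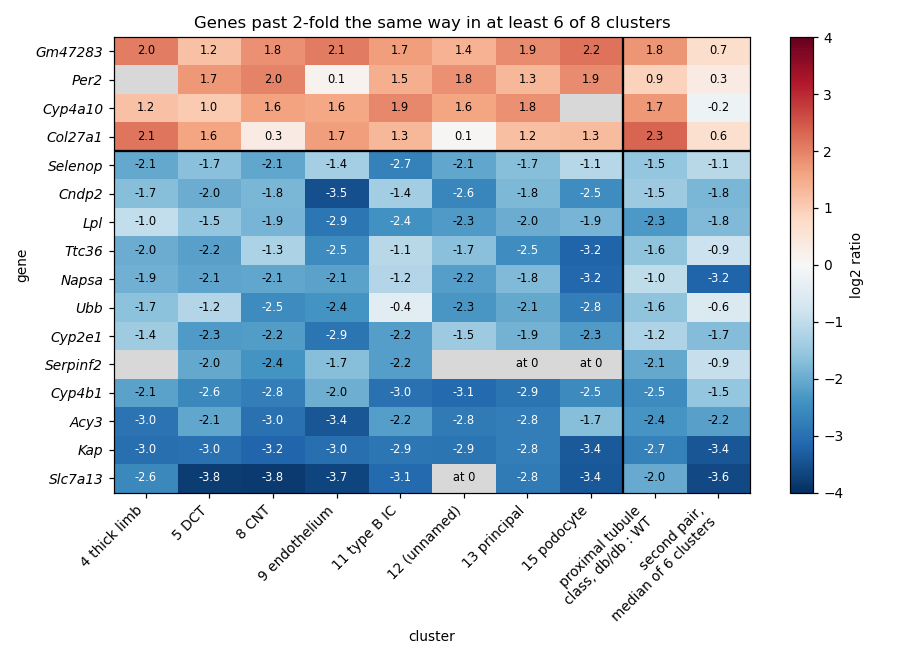
Log2 ratio of db/db to WT for the 4 genes higher and the 12 genes with the lowest medians among those lower in at least 6 of the 8 clusters (rows), by cluster (columns). The last columns give the ratio in the proximal tubule-like clusters and the median of the second pair of libraries over 6 clusters. Grey cells are below the floor, and "at 0" marks a db/db value of 0. Kap lies near its median of -2.99 in every cluster.

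A second pair of libraries, Sco2KO/KI;db/db against Sco2KO/KI, gives the db/db genotype in mice that share no library with the first pair. It was read in clusters 4, 5, 8, 9, 12 and 13, which had between 27 and 84 nuclei in Sco2KO/KI. Clusters 11 and 15 had 15 and 11 nuclei there and were left out. Kap was at 36.1 in Sco2KO/KI and 3.25 in Sco2KO/KI;db/db in the thick ascending limb-like cluster, and at 59.1 and 5.78 in the endothelium-like cluster. Of the 39 shared lower genes, 34 had a negative median in the second pair and 19 were past 2-fold lower. These 19 were 6 of the 11 proximal tubule-enriched genes and 13 of the 28 others. The 13 include Kap, one of the proximal tubule markers, and Umod, one of the thick ascending limb markers. They also include Mep1a and Acy3, whose proximal tubule levels in WT were 2.73 and 2.41 times the mean of the 8 clusters. The 13 are therefore not a set free of transcripts from other segments. Of the 4 shared higher genes, 3 had a positive median and the median of 0 passed 2-fold. Cyp4a10 had a negative median, -0.22, with a positive ratio in 1 of the 3 clusters where it was above the floor. Gm47283, Per2 and Col27a1 were each past 2-fold higher in 1 cluster of the second pair. Cox8a, a subunit of respiratory complex IV, was at 2.70 in WT against 0.884 in db/db in the thick ascending limb-like cluster and at 1.90 and 2.04 in the second pair. Its median log2 ratio was -1.60 in the first pair. Fth1, Prdx5 and Ubb had medians of -0.20, -0.04 and -0.57 in the second pair, short of 2-fold. Ftl1 had a median of 0.19 there and was lower in value in 0 of 6 clusters. Selenop and Odc1 had -1.12 and -1.34. The rule of this selection used only the first pair, so the second pair is a separate reading, again with 1 library a side.

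Of the listed clock genes, Per2 was among the shared higher genes, and none was among the shared lower ones. The circadian clock is a loop in which ARNTL, with CLOCK, drives genes through a DNA element called the E-box, among them the Per and Cry genes, whose proteins then block ARNTL and CLOCK. Arntl itself is driven by ROR and held back by REV-ERB proteins (Nr1d1 and Nr1d2). Promoters show where these elements lie. RefSeq promoters (GRCm38.p6, 250 bases before to 50 after each start) were found for 17 of the 21 listed clock genes, 25 sequences in all. The E-box was searched as CACGTG, which reads the same on both strands, and the ROR half-site as AGGTCA on either strand, and the 2 motifs do not overlap in the sequences shown. Of the 17 genes, 5 had an E-box and 5 a ROR half-site in a promoter. Counted by sequence, 6 of the 25 held the E-box and 5 the half-site. Over all 32851 promoters of this length, 7.15% held the E-box and 16.3% the half-site. The promoters of Tef, an output gene of the loop, and of Arntl are shown because their levels differed in opposite directions, with matches in capitals. The Tef promoter shown is on the plus strand at chr15:81802423-81802722 and its capitals mark the E-box, from base 124. The other Tef promoter found, at chr15:81811164-81811463, also holds an E-box, from base 113. Of the 2 Arntl promoters in the table, neither holds an E-box and 1 holds a ROR half-site. The latter is shown, on the plus strand at chr7:113207261-113207560, and its capitals mark the half-site, from base 282.
Tef: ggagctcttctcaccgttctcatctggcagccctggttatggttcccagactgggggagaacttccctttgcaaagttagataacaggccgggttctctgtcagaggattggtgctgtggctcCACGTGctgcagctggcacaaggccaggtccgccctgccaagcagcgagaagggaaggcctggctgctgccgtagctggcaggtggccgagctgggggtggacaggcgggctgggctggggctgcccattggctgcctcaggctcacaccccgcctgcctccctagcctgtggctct
Arntl: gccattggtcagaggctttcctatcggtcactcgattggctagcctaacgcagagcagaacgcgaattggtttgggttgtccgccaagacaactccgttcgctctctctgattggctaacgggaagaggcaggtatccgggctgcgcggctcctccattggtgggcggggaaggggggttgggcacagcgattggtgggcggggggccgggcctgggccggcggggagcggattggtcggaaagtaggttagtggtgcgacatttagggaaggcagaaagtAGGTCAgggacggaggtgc

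Arntl was above the floor in 3 clusters and lower in all of them. It was at 0.563 in WT against 0.0760 in db/db in the distal convoluted tubule-like cluster, 0.898 and 0.0421 in the connecting tubule-like cluster, and 0.689 and 0.0646 in cluster 12. The WT values were all above the db/db values, which a 2-fold fall from near the floor nearly requires. In the second pair its log2 ratios were -2.07, -1.66 and -2.08 in the same clusters. Per2, which encodes a repressor of the loop, was at 0.226 and 0.987 in the distal convoluted tubule-like cluster, 0.418 and 1.95 in the connecting tubule-like, and 0.530 and 0.592 in the endothelium-like cluster. It was at 0.254 and 0.872 in the type B-like cluster, 0.233 and 1.09 in cluster 12, 0.829 and 2.22 in the principal cell-like, and 0.154 and 0.847 in the podocyte-like cluster. The endothelium-like cluster was the exception to 2-fold. In the second pair the log2 ratios of Per2 ran from -0.63 to 1.19, with a median of 0.32, and 1 of 5 clusters above the floor passed 2-fold. Tef was higher in value in 8 of 8 clusters, with log2 ratios from 0.21 to 1.35, and passed 2-fold in 1. Cry2, another repressor, had 1.5 in the distal convoluted tubule-like cluster and 1.54 in cluster 12. Per1, with an E-box in 1 promoter and none in the other, had values in db/db on both sides of WT. It was at 0.670 and 0.288 in the connecting tubule-like cluster and at 0.189 and 0.505 in the endothelium-like cluster. Of the 21 listed clock genes, 9 to 13 were above the floor in a cluster. Over the 8 clusters 86 values of the list were read, of which 12 were higher (14%) and 6 lower (6.98%). A gene counts once in each cluster where it was read. Per2 alone gave 6 of the 12 higher calls, and Arntl 3 of the 6 lower ones. Over all genes and the 8 clusters 3.34% of 36034 values were higher and 8.16% lower. The labels do not give the hour at which tissue was collected.

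Genes of the glucocorticoid response showed a similar spread. Zbtb16, a transcription factor induced by glucocorticoids, was above the floor in 7 clusters and higher in value in all of them, with log2 ratios from 0.73 to 2.92. It was at 0.221 and 2.33 in the connecting tubule-like cluster and at 1.21 and 3.22 in the endothelium-like cluster. Fkbp5, a co-chaperone of the glucocorticoid receptor, was at 1.74 in WT against 4.71 in db/db in the thick ascending limb-like cluster and at 0.519 and 1.38 in the podocyte-like cluster. Sgk1, a kinase that aldosterone induces, was at 0.564 and 1.24 in the connecting tubule-like cluster. Dusp1, a phosphatase of the same list, was lower in 5 of the 6 clusters in which it was above the floor. Of 103 values of the list 12 were higher (11.7%) and 12 lower (11.7%), against 3.34% and 8.16% over all genes. Zbtb16 alone gave 5 of the 12 higher calls, and Dusp1 5 of the 12 lower ones.

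**Figure D3:**
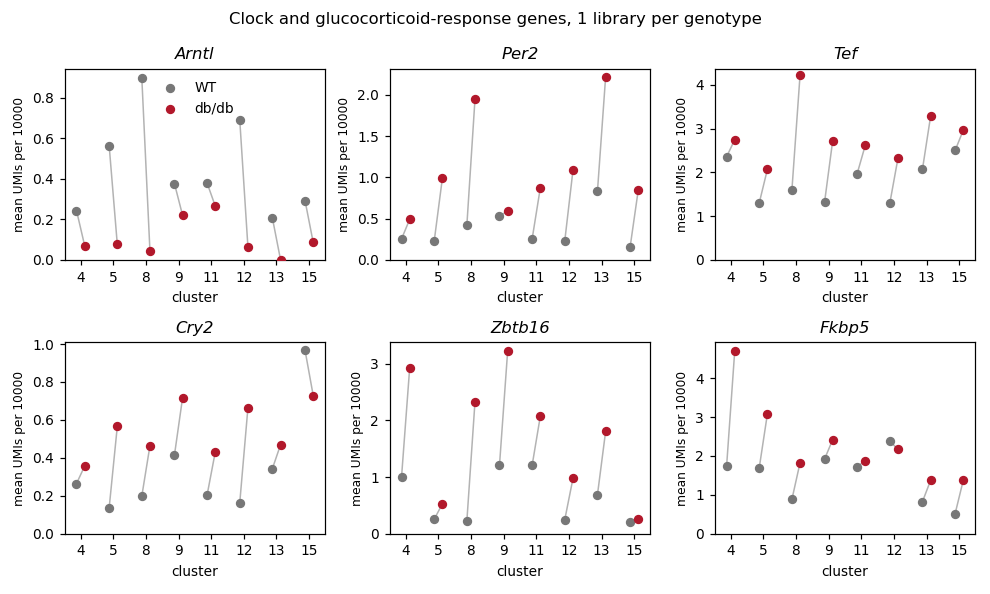
Level (mean UMIs per 10000 in a nucleus) of 4 clock genes and 2 glucocorticoid-response genes in WT (grey) and db/db (red) by cluster number, 1 library each. Arntl is lower and Per2 higher in db/db in each cluster where it is above the floor, and Zbtb16 is higher in each cluster, cluster 15 being below the floor.

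Among the differences found in a single cluster, 222 of 4069 genes (5.46%) passed 2-fold in 1 cluster and stayed under 1.5-fold in every other cluster above the floor. Low genes can pass by counting noise, so those named have a value times number of nuclei of at least 100, which left 174, 78 higher and 96 lower. By cluster these were 9 in the thick ascending limb-like, 9 in the distal convoluted tubule-like, 21 in the connecting tubule-like, 42 in the endothelium-like and 9 in the type B-like. Cluster 12 had 26, the principal cell-like 24 and the podocyte-like 34.

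In the thick ascending limb-like cluster Atp2b4, a plasma membrane calcium pump, was at 0.359 in WT against 1.76 in db/db, and Wwox, an oxidoreductase gene, was at 12.8 and 4.90. Atp2b4 was also higher in the second pair, at 0.273 and 0.993, while Wwox was at 8.48 and 10.7. Irs2, an adaptor of the insulin receptor, was limited to the distal convoluted tubule-like cluster at 0.296 and 0.893. It was at 0.527 and 0.917 in the second pair, short of 2-fold. Pdzk1, a scaffold of apical transporters, was lower in that cluster at 1.20 and 0.413. Car2, carbonic anhydrase 2, was limited to the connecting tubule-like cluster at 1.21 and 0.462, and was at 0.808 and 1.27 in the second pair.

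Mpp5, a cell polarity scaffold, was limited to the endothelium-like cluster at 2.10 and 0.504, and Spint2, a protease inhibitor of epithelia, was at 1.36 and 0.358 there. Ntn4, the basement membrane netrin, was limited to the type B-like cluster at 2.17 and 0.489, as was Slc1a5, a glutamine transporter, at 1.41 and 0.483. Ccnd1, cyclin D1, was limited to cluster 12 at 0.695 and 1.73. Sec31a and Arf4, of vesicle traffic between the endoplasmic reticulum and the Golgi, were lower in cluster 12, at 1.42 and 0.397 and at 1.38 and 0.417. In the second pair Sec31a was at 1.00 and 1.04. Atad3a, a mitochondrial membrane ATPase, was limited to the principal cell-like cluster at 1.02 and 0.263, and was at 1.07 and 0.171 in the second pair.

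The podocyte-like cluster had 8 higher and 26 lower limited genes above that number. Shroom3, an actin-binding protein that shapes epithelial cells, was at 23.5 in WT against 59.1 in db/db, and Iqgap1, an actin scaffold of podocyte foot processes, was at 2.15 and 4.92. Calm2, a calmodulin gene, was at 3.36 and 0.668, and Dock9, an activator of CDC42, was at 1.54 and 0.400. In the 7 other clusters Shroom3 had log2 ratios between -0.41 and 0.30, and Iqgap1 between -0.55 and 0.45.

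The thick ascending limb-like cluster had near-equal Slc12a1 in both libraries, as given above, and its widest ratios were in other genes. Enox1, a hydroquinone oxidase and one of the markers used here, was at 5.53 in WT against 31.2 in db/db, and at 12.5 and 24.2 in the second pair. Sgcz, a sarcoglycan, was at 22.9 and 0.251, but at 0.224 and 1.43 in the second pair. Only the WT library had it above 1.43, so the WT value sets this ratio. Nrxn3, a neurexin, was at 5.57 and 0.442 in the first pair and at 15.6 and 17.8 in the second. Fxyd2, a subunit of the sodium pump, was at 22.1 and 40.7, and Egf, epidermal growth factor, was at 77.7 and 52.6, both short of 2-fold. Tmem207, a membrane protein of this segment, was at 3.64 and 1.76, and Casr, the calcium-sensing receptor, at 3.80 and 6.06. Nos1, the nitric oxide synthase of the macula densa, was at 0.187 and 0.759, and at 0.154 and 1.70 in the second pair. The summed macula densa markers in this cluster were at 2.05 and 4.11, so a change in the number of such nuclei in the cluster cannot be told apart from a change per nucleus.

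In the distal convoluted tubule-like cluster none of its 10 markers passed 2-fold. Slc12a3, the thiazide-sensitive sodium-chloride cotransporter, was at 158 in WT against 135 in db/db, and Trpm6, the magnesium channel, at 25.3 and 23.5. Trpm7, its relative, was at 23.1 and 39.4, and at 39.6 and 32.0 in the second pair. Grin3a, a glutamate receptor subunit, was at 0.799 and 4.84, and Pappa, a protease that frees IGF from its binding proteins, at 1.22 and 4.86. Neither was higher in the second pair, where Grin3a was at 1.85 and 1.84 and Pappa at 3.54 and 1.47. Abca13, a lipid transporter family member, was at 80.8 and 114, and Esrrg, an orphan nuclear receptor, at 55.4 and 80.7.

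The connecting tubule-like and principal cell-like clusters shared Ctse. Ctse, cathepsin E, an aspartic protease (chromosome 1, mm10, 131638306 to 131675505), was listed at 0 in WT and was at 4.13 in db/db in the connecting tubule-like cluster. It was at 0.0570 and 18 in the principal cell-like cluster and at 0.0158 and 1.11 in the type B-like cluster. In the second pair it was listed at 0 and was at 2.30 in the connecting tubule-like cluster, and listed at 0 and at 10.6 in the principal cell-like cluster. Both libraries with the db/db genotype were high, and both without it were at or near 0. Coro2a, a coronin, was at 0.0263 and 2.16 in the principal cell-like cluster and at 0.163 and 1.66 in the second pair. Atp4a, the catalytic subunit of the gastric-type proton-potassium pump that the collecting duct also uses, was at 0.482 and 2.46, and at 0.495 and 1.64.

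The water and sodium channels of principal cells differed less. Aqp2, the vasopressin-regulated water channel, was at 28.2 in WT against 21.8 in db/db in the principal cell-like cluster, and at 5.90 and 16.4 in the second pair. Aqp3, a basolateral water channel, was at 9.47 and 7.59, and Scnn1b, a subunit of the epithelial sodium channel, at 7.14 and 11.1. Aqp4 was past 2-fold lower, at 2.19 and 0.940. Aqp2 and Aqp3 were lower in value in the first pair and higher in the second, where Aqp3 was at 2.36 and 5.49. In the connecting tubule-like cluster Klk1, tissue kallikrein, was at 20.1 and 6.80, but at 18.4 and 17.8 in the second pair. S100g, the calcium carrier calbindin-D9k, was at 13.1 and 5.92, and at 18.7 and 27.4 in the second pair. Hif1a, the hypoxia-inducible factor, was at 0.945 and 2.75, and at 1.25 and 2.61.

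Cluster 12, with markers of the distal convoluted and connecting tubule, was read against the distal calcium and magnesium list, of which 16 genes were above the floor, 1 higher and 3 lower, with a median log2 ratio of 0.17 against -0.08 for all genes. Calb1, calbindin-D28k, the 1 higher gene, was at 19.2 in WT against 41.3 in db/db, and at 24.5 and 67.4 in the second pair. Slc8a1, the sodium-calcium exchanger, was at 605 and 805, and at 612 and 902, neither past 2-fold. Slc12a3 was at 134 and 88.8 here. Abca13 was at 58.4 and 115, and at 37.4 and 84.3 in the second pair. A shift in the mix of nuclei within the cluster cannot be told apart from a change per nucleus.

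In the type B-like cluster Slc26a4, the chloride-bicarbonate exchanger pendrin, was at 80.3 in WT against 84.4 in db/db, and Slc4a9 at 16 and 21.7. The named differences lay elsewhere. Nlgn1, a neuroligin, was at 0.320 and 3.02, and Cacna1e, a calcium channel subunit, at 0.602 and 4.74. Slc8a1, one of the connecting tubule markers, was lower, at 67.5 and 22.3. The connecting tubule markers summed, Slc8a1 included, were at 84.0 and 29.5 in this cluster. The part of RNA from other cells in this difference was not tested. Txnip, a thioredoxin inhibitor that glucose is known to induce, was also lower in this cluster, at 5.20 and 1.60; it was named after its values were seen.

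The endothelium-like cluster, with 124 WT and 279 db/db nuclei, had similar levels of most of its defining genes in both libraries. Emcn was at 16.4 in WT against 15 in db/db, Ptprb at 16.6 and 16.5, and Kdr, the main VEGF receptor, at 4.35 and 3.55. Flt1, a decoy VEGF receptor, was at 16.9 and 27.9, and Tek, the angiopoietin receptor, at 7.71 and 14.6, neither past 2-fold. Tek lies 6.96 Mb from Lepr. Peg3, an imprinted zinc finger gene, was at 0.408 and 3.21, and at 0.782 and 3.26 in the second pair. Rgcc, a cell cycle regulator, was at 3.68 and 14.2, and at 7.05 and 16.8. Nebl, a nebulin family member, was at 1.41 and 6.01, and at 0.685 and 2.62. Rarb, a retinoic acid receptor, was at 1.68 and 5.28, and at 2.04 and 5.12. Igf1, the growth factor, was lower, at 3.96 and 0.945, and at 1.78 and 0.133. Rarb was named because it passed 2-fold the same way in both pairs.

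Cholesterol synthesis genes were lower in the endothelium-like cluster. Of 6 listed genes above the floor, 4 were past 2-fold lower, and the median log2 ratio was -1.65, against -0.09 for all genes of the cluster. Hmgcs1, which makes HMG-CoA, was at 2.21 in WT against 0.769 in db/db, and at 2.12 and 0.591 in the second pair. Idi1, of isoprenoid synthesis, was at 1.07 and 0.0421, and at 0.0120 and 0.0750 in the second pair, both below the floor. The median of the list in the second pair was -1.44 in this cluster. Stat2, of interferon signalling, was at 2.56 and 0.609, and Esm1, a marker of sprouting endothelium, at 1.56 and 0.280. Cd74, an antigen presentation gene that leukocytes express more, was at 2.13 and 0.639 in the same cluster. The summed leukocyte markers were lower in db/db in 7 of 8 clusters.

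No slit diaphragm gene named here was lower past 2-fold in the podocyte-like cluster. Nphs1, nephrin, was at 16.9 in WT against 23.7 in db/db, Wt1 at 17.4 and 16.5, and Synpo at 19.7 and 24.6. Of 31 listed podocyte and basement membrane genes above the floor here, 2 were higher and 0 lower, against 3.88% higher and 12% lower of all genes of the cluster, with a median log2 ratio of 0.28, against -0.15 for all genes of the cluster. Trpc6, a calcium channel whose activating mutations cause podocyte disease in humans, was listed at 0 in WT and was at 1.12 in db/db. Rbfox1, a splicing factor, was at 8.32 and 60.9, and Rcan2, a calcineurin regulator, at 0.407 and 5.48. Ctgf, a matrix-linked target of TGF-beta and YAP, was at 1.59 and 10.0, and Adm, adrenomedullin, at 0.774 and 3.58. Vegfa, the growth factor podocytes send to the endothelium, was at 19.2 in both. The Sco2KO/KI library had 11 nuclei here, so no second reading was taken. Slc8a1 at 16.2 and 2.56 and Gpx3 at 57.5 and 27.5 were lower. The connecting tubule markers summed, Slc8a1 included, were at 22.4 and 5.02 here, and the part of RNA from other cells was not tested.

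**Figure D4:**
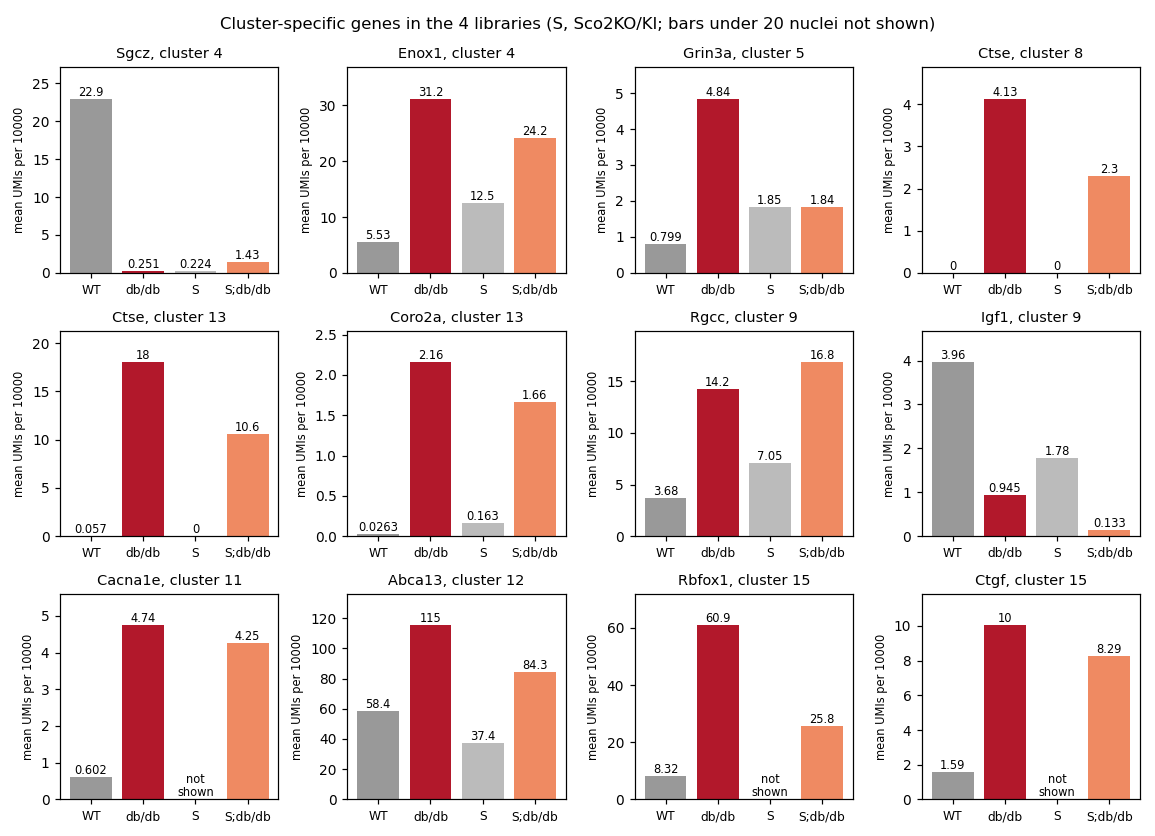
Level (mean UMIs per 10000 in a nucleus, bars from 0) of genes that led single clusters, in WT, db/db, Sco2KO/KI (S) and Sco2KO/KI;db/db (S;db/db), 1 library each. Ctse, Rgcc and Coro2a are high in both db/db libraries, Igf1 is low in both, and Sgcz is high in WT alone. Bars from under 20 nuclei are not shown.

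Of 25 gene lists, those for energy metabolism and translation had negative medians in all 8 clusters. The calls below are over the 8 clusters together, where 3.34% of the values of all genes were higher and 8.16% lower. A gene can count once in each cluster, so the calls of a list are not independent of each other. The 13 mitochondrially encoded genes, 12 of them above the floor, had medians from -1.12 in the thick ascending limb-like cluster to -0.66 in cluster 12, with 34 lower and 0 higher calls from 96 values. mt-Co1, a complex IV subunit, was at 28.7 in WT against 8.99 in db/db in the thick ascending limb-like cluster, and at 15.8 and 8.35 in cluster 12. In the second pair it was at 25.9 and 24.1 in the former. mt-Nd4, of complex I, was at 13.2 and 4.60 there, and at 23.6 and 9.93 in the second pair. The medians of the list in the second pair lay between -0.79 and -0.34. These transcripts are made in mitochondria, outside the nucleus, and the libraries are of nuclei.

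Nuclear genes of the respiratory chain and ATP synthase had medians from -0.66 to -0.36, with 51 lower and 0 higher calls from 240 values, but from -0.17 to 0.40 in the second pair. Ribosomal protein genes, with medians from -1.01 to -0.31 and 29 lower and 0 higher calls from 100 values, had medians from -0.73 to 0.57 in the second pair. Immediate early and heat shock genes had medians from -1.37 to -0.37 and 34 lower and 1 higher call from 76 values. In the second pair their medians ran from -1.24 to 0.67. Hspa8, a constitutive chaperone, was at 3.01 and 1.12 in the distal convoluted tubule-like cluster, and at 4.12 and 1.17 in the second pair. Cholesterol synthesis genes had 14 lower and 0 higher calls from 34 values, at most 7 genes a cluster. Genes for lipid uptake and oxidation had 38 lower (20.1%) and 3 higher calls (1.59%) from 189 values, with medians from -0.77 to -0.19, and those for glucose uptake and glycolysis 23 lower and 1 higher from 174, with medians from -0.47 to -0.21. NRF2 and glutathione genes had 18 lower and 3 higher calls from 99 values. Inflammation, interferon and complement genes had 12 lower and 1 higher from 57. In the second pair the medians ran from -0.15 to 0.58 for glucose uptake and glycolysis and from -0.43 to 1.27 for inflammation genes. They ran from -1.44 to -0.25 for cholesterol synthesis, from -0.34 to 0.01 for lipid and from -0.40 to -0.03 for NRF2 and glutathione genes.

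Insulin, IGF and leptin signalling genes lay near 0, with medians from -0.11 to 0.18 and 6 higher (3.03%) and 5 lower calls (2.53%) from 198 values. Insr, the insulin receptor, was at 2.36 in WT against 1.94 in db/db in the thick ascending limb-like cluster and at 3.21 and 4.59 in the endothelium-like cluster. Extracellular matrix and TGF-beta genes had 12 higher and 8 lower calls from 132 values, with the highest medians in the thick ascending limb-like cluster, at 0.47, and the podocyte-like cluster, at 0.45. Col5a2, a fibrillar collagen chain, was at 1.52 and 0.0239 in the distal convoluted tubule-like cluster. Ion channel and synapse-type genes had positive medians in 8 of 8 clusters, from 0.17 to 0.35, with 14 higher and 11 lower calls from 104 values. Distal salt transport genes had medians from -1.06 to 0.08 and 39 lower against 2 higher calls from 174 values, the lowest median being that of the podocyte-like cluster, which the list was not made for. In the thick ascending limb-like cluster this list had 0 higher and 0 lower calls from 22 genes. Hypoxia response genes had 4 higher (5.33%) and 5 lower calls (6.67%) from 75 values, which is near the shares of all genes. Tubular injury genes had 7 higher (10.6%) and 12 lower (18.2%) from 66 values.

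**Figure D5:**
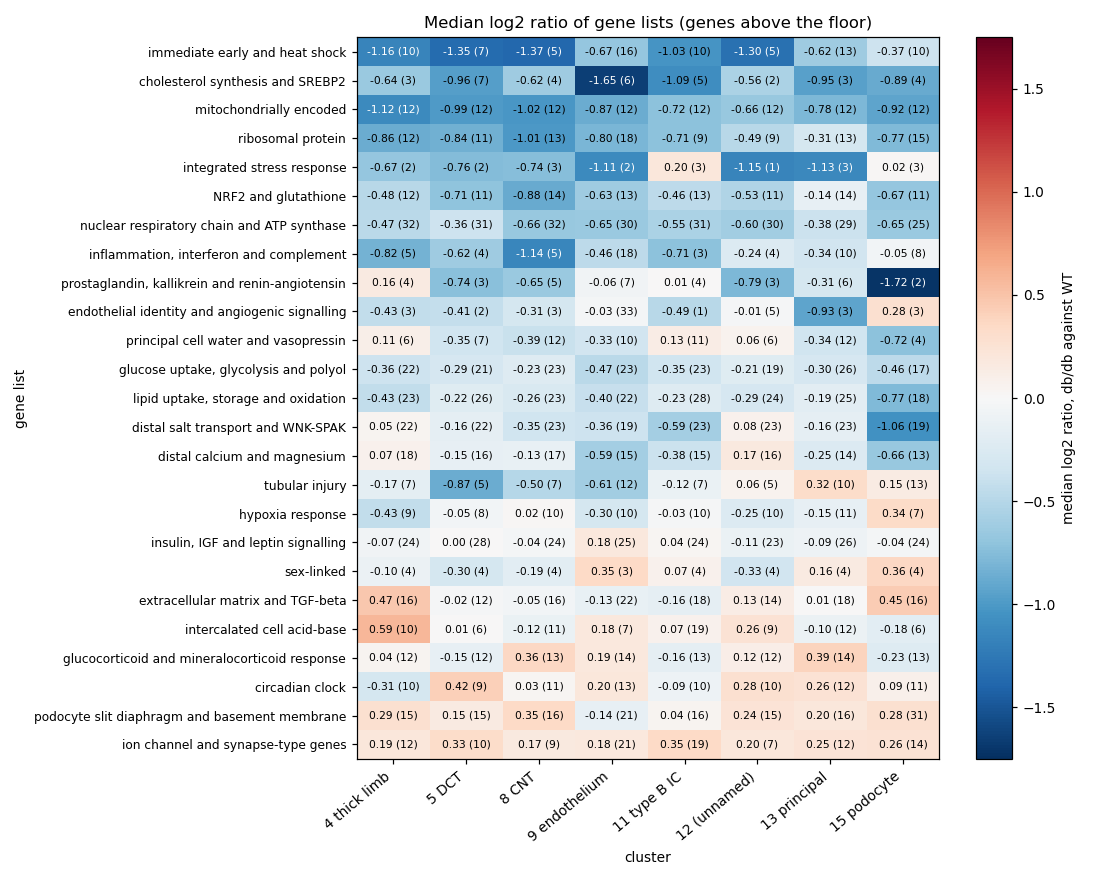
Median log2 ratio of db/db to WT for 25 gene lists (rows) in the 8 clusters (columns), with the number of list genes above the floor in brackets. Medians are of 1 library a side. Mitochondrially encoded genes are negative throughout, from -1.12 to -0.66, and ion channel and synapse-type genes are positive throughout, from 0.17 to 0.35.

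Over whole clusters, genes called in the first pair were past 2-fold the same way in the second pair more often than genes at large in 5 of the 6 clusters for those higher and in 6 of 6 for those lower. Genes at large were not matched to the called genes in level. Low genes pass 2-fold more easily in either direction, so the shares past 2-fold do not by themselves show a repeated difference. Of the genes called higher in the thick ascending limb-like cluster, 83.5% had the same sign and 29.1% were past 2-fold in the second pair, against 45.3% and 3.99% of all genes above the floor in both pairs. In cluster 12 the called higher genes had the same sign in 42.3% and passed 2-fold in 6.41%, against 45% and 7.22% of all. Of called lower genes, between 51.0% and 69.2% had the same sign, against 51.2% to 55.5% of all, and between 15.4% and 27.0% passed 2-fold, against 4.20% to 8.55% of all. In the connecting tubule-like cluster (53.8% against 55.5%) and the principal cell-like cluster (51.0% against 51.2%) the called lower genes did not have the same sign more often than genes at large. Genes past 2-fold the same way in both pairs numbered 40 higher and 52 lower in the endothelium-like cluster, 36 and 58 in the principal cell-like, 23 and 32 in the thick ascending limb-like, 16 and 46 in the connecting tubule-like, 11 and 43 in the distal convoluted tubule-like, and 5 and 53 in cluster 12. Lower genes were more numerous in all 6 clusters. With a value times nuclei of at least 100 in both pairs, they were 40 and 22, 19 and 6, 23 and 20, 16 and 3, 11 and 13, and 5 and 4 in the same order. The filter removed more lower than higher genes in each cluster, and with it higher genes were more numerous in 5 of the 6. It multiplies the higher value by the nuclei of its library, which for lower genes is Sco2KO/KI in the second pair. That library had fewer nuclei in each of these clusters, 33 against 319 in the connecting tubule-like cluster. The filter is therefore stricter for lower genes, and the directions cannot be compared with it.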

How the data were processed

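Nuclei from kidney cortex of 4 genotypes were profiled with 1 library each. The deposited values are cluster averages of signal made by the authors, one column per cluster and library, each column totalling 10000. They are from Cell Ranger and Seurat on mm10, per the submitters' processing notes, and no source used here names their versions. The table held 21481 entries, of which 25 with date-like names (gene symbols altered by a spreadsheet) were left out, leaving 21456 genes. All 83 columns were matched to a library and a cluster. Ratios used a pseudocount of 0.1, a floor of 0.5 in at least 1 library and a 2-fold threshold. A log2 ratio understates the change of genes near the pseudocount. Nuclei numbers and UMI totals per nucleus were recovered from the smallest values and are estimates, mainly in the smallest clusters of the whole series. No test was run, since each group is 1 library. The procedure was tested on simulated data, with changes larger than 2-fold planted in genes well above the floor. The simulation held no difference between preparations, and it does not cover calls near the floor or near 2-fold. Alternatives covered the pseudocount, the floor, the threshold, the number of clusters, centring and rescaling without mitochondrially encoded and proximal tubule genes.

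The clusters, gene lists and markers were chosen with earlier results of these data known. Genes were named by a fixed rule: the highest and lowest 12 medians of the shared genes, 3 each way per cluster by ratio, by level and among limited genes, the cluster's own markers, and up to 4 genes per list. Other named genes, among them Per1, Sgk1, Fkbp5, Hif1a, Insr, Hspa8, mt-Co1, Rarb and shared lower genes past the first 12, were chosen after their values were seen. Of the listed genes, 6 were not in the table and were not analysed here, and a few other genes are not reported here. Gene positions are from GENCODE M21 on GRCm38. Computation used Python 3.11.15, pandas 2.3.3, numpy 2.4.6 and matplotlib 3.10.9.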

Additional observations from a re-analysis of the deposited data

Results flagged for a closer look

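Genes that were past 2-fold in opposite directions in the 2 pairs of libraries were flagged, that is, db/db against WT and Sco2KO/KI;db/db against Sco2KO/KI. The difference between the pairs was not tested, since each side is 1 library. Sgcz in the thick ascending limb-like cluster had a log2 ratio of -6.04 in the first pair and 2.23 in the second. Pappa in the distal convoluted tubule-like cluster had 1.91 and -1.22. In the endothelium-like cluster Morc3 had 2.06 and -1.11, and Kank1 had -1.54 and 1.41. Egfem1 in cluster 12 had -2.54 and 4.06, with levels of 3.63 in WT, 0.541 in db/db, 0.738 in Sco2KO/KI and 13.9 in Sco2KO/KI;db/db.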

How the results depend on the processing

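Numbers of called genes per cluster, in the order of clusters 4, 5, 8, 9, 11, 12, 13 and 15, moved with the pseudocount, the floor and the threshold. They were 89, 66, 131, 210, 68, 74, 146 and 186 with a pseudocount of 0.5, and 634, 846, 1549, 2626, 1036, 1599, 2150 and 2001 with no floor. They were 77, 52, 98, 128, 55, 41, 96 and 110 with a floor of 2, and 917, 1052, 1432, 2036, 1142, 1318, 1629 and 1593 at 1.5-fold. Shared genes, higher and lower, were 1 and 14 with a pseudocount of 0.5, 10 and 70 with no floor, 0 and 11 with a floor of 2, 12 and 153 at 1.5-fold, 1 and 13 for all 8 clusters, and 8 and 77 for at least 5. Shared higher genes were 2 when cluster 5, 11, 13 or 15 was left out. Limited genes were 79, 818, 29 and 1125 with a pseudocount of 0.5, no floor, a floor of 2 and 1.5-fold.

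Requiring a value times nuclei of at least 100, chosen after seeing the data, gave 234, 323 and 343 called genes in clusters 12, 13 and 15. List medians over the 8 clusters that moved with a pseudocount of 0.5 were -0.43 for nuclear respiratory chain genes, -0.65 for immediate early, -0.52 for cholesterol synthesis and -0.51 for ribosomal protein genes. With no floor they were -0.58 for immediate early, -0.54 for cholesterol synthesis, -0.23 for integrated stress response, -0.33 for NRF2 and glutathione, 0.37 for ion channel and synapse-type, and -0.54 for ribosomal protein genes. With a floor of 2 they were -0.86 for nuclear respiratory chain, 0.059 for insulin, IGF and leptin signalling, -1.41 for cholesterol synthesis, -0.76 for hypoxia response and 0.52 for integrated stress response genes. Centring gave 0.30 for ion channel and synapse-type genes. The median of Pla2r1 turned from 1.06 to -0.31 with no floor. The cause was not tested in any of these. Counts kept within 1.5 times under a pseudocount of 0.01, centring and rescaling, which left out 1613 genes.

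No paired analysis was possible because each genotype has 1 library and the result comes from no test. Depth limits low genes most, and the second pair rests on few Sco2KO/KI nuclei.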
